A study of Mus musculus with 20 samples.

Results

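Lin28a, Lin28b and 6 mRNAs known as targets of the let-7 microRNAs (Hmga2, Hmga1, Igf2bp1, Igf2bp3, Cdc25a and Arid3b) were followed across all 5 genotype groups of a mouse embryonic stem cell series. The genes were picked by symbol, with earlier results of these data known, and all 8 were present among the 13283 symbols of the deposited expression table. The cells were male C57BL/6 lines cultured with serum, LIF and 2i inhibitors, and polyadenylated RNA was sequenced in 20 libraries. Trim71-KO cells, which lack TRIM71, were set against Trim71-cond cells with the floxed genotype Trimfl/fl, with 4 libraries each under the codes 1A, 2B, 3A and 3B. R595H/R595H clones (C14, C20 and C24) and R595H/+ clones (C15, C21 and C23), in which both or one Trim71 allele carries the R595H change, were set against WT clones (C16, C7 and C5). C14, C15 and C16 had a library from each of 2 dates, written 20/1 and 5/2 in the titles. The day labels of the clonal libraries disagree in part with these dates, among them that of the C15 library titled 20/1. The dates of the titles were used. The libraries of a clone were averaged, which left 3 values per genotype. The labels name no clone for the conditional libraries, so whether these stem from separate deletions is not known, and their p-values cover only the spread from library to library, which may be technical. Per its title, the series was made to compare deletion of the gene with the homozygous R595H change.

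LIN28A and LIN28B are RNA-binding proteins of stem cells that bind the precursors of let-7 and keep them from being processed. Mature let-7 rises as stem cells differentiate, and it pairs through its seed with sites in the 3′ UTRs of growth and fetal genes and lowers their output. The Lin28 mRNAs carry such sites themselves, so that the proteins and the microRNA restrain each other. TRIM71, known from worms as LIN-41, is an RNA-binding protein and ubiquitin ligase whose own mRNA is a classical let-7 target. Mature let-7 was not measured in these libraries.

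The let-7 family is held together by its seed, bases 2 to 8 of the mature strand, shown in capitals below because the target sites follow from it. Of 11 distinct mature names in RefSeq (GRCm38.p6), 10 share the seed GAGGUAG, and let-7j alone ends its seed with another base.
let-7a-5p: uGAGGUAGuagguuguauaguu
let-7d-5p: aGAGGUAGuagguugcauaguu
let-7g-5p: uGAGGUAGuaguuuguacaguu
miR-98-5p: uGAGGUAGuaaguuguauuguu
let-7j: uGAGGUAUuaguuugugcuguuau

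The precursors carry the element that LIN28 proteins contact. A GGAG run, in capitals, stands between the arms in 8 of the 11 precursors with both arms listed (14 precursors are listed in all), and it is missing from let-7b, let-7c-2 and miR-98. The stretch between the arms is shown for a pair that holds it and for one that does not.
let-7a-1: uuagggucacacccaccacugGGAGauaa
let-7f-2: uuagggucauaccccaucuuGGAGauaa
let-7c-2: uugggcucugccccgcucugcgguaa

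In GRCm38, Lin28a lies on chromosome 4 (134003330 to 134018841, minus strand), Lin28b on chromosome 10 (45376620 to 45486395, minus strand) and Cdc25a on chromosome 9 (109875579 to 109893895, plus strand). The match to the seed, CTACCTC, was looked for on the transcript strand of the longest annotated 3′ UTR of each gene (GENCODE vM21, GRCm38). All 8 genes hold at least 1 match, against 10.5% of the 13056 genes of the table with an annotated UTR. Lin28b, Hmga2 and Igf2bp1 hold 4 each, Lin28a holds 2, and Hmga1, Igf2bp3, Cdc25a and Arid3b hold 1 each. Long UTRs hold matches more often: 29.6% of the UTRs in the longest length class, where Lin28b and Igf2bp1 fall, and 9.72% in that of Hmga1. The genes are known as let-7 targets partly through such matches, so their presence is a description and not a result. An A after the match, which strengthens pairing sites in general, follows both matches of Lin28a, 1 of those of Lin28b, 1 of Hmga2, 3 of Igf2bp1 and the single one of Igf2bp3. It is absent after the single matches of Hmga1, Cdc25a and Arid3b, and Arid3b also holds 4 copies of the offset form TACCTCA. The Arid3b match starts at base 2148 of a UTR of 2160 bases, at its annotated end. The windows below show the match, with its following A where there is one, in capitals.
Lin28a, chr4:134005189-134005196, minus strand: gcacagcctgttgaaCTACCTCAtttttgc
Lin28a, chr4:134004551-134004558, minus strand: gagatcgccacaaacCTACCTCActgtgtt
Lin28b, chr10:45381022-45381029, minus strand: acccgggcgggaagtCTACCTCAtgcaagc
Hmga2, chr10:120364224-120364231, minus strand: gccgacattcaatttCTACCTCAgcatcag
Igf2bp3, chr6:49086787-49086794, minus strand: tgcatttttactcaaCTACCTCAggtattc
Cdc25a, chr9:109892747-109892753, plus strand: ttatcatcctaggagCTACCTCtactttta
Arid3b, chr9:57790362-57790368, minus strand: tatatttcaataaagctCTACCTCttcaca

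**Figure D1:**
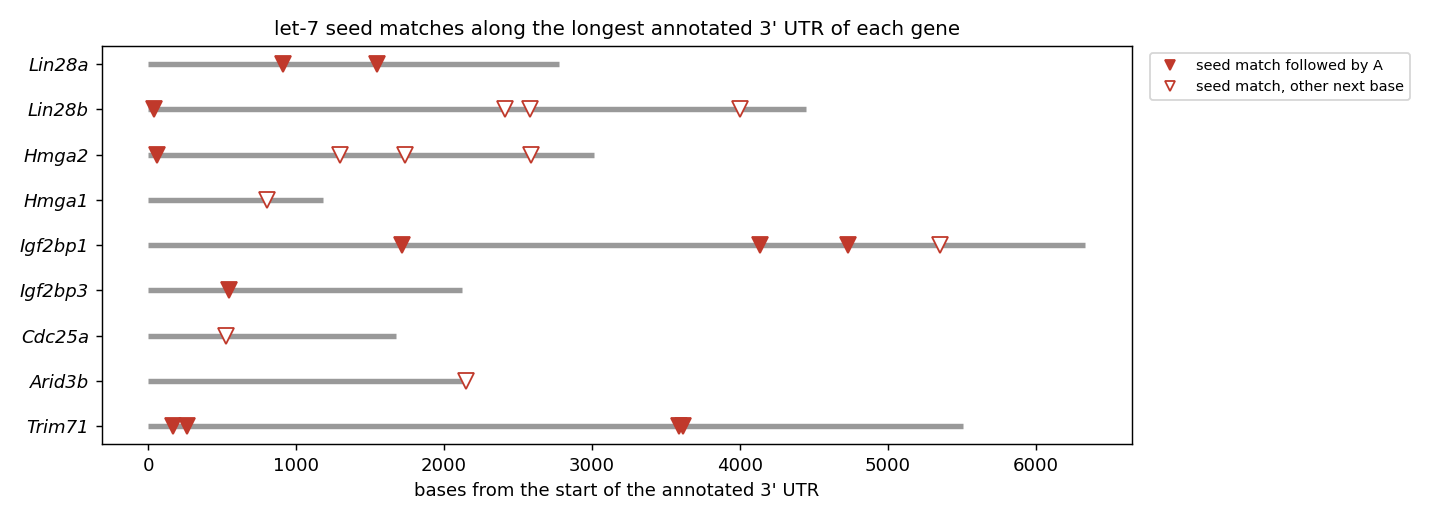
Positions of let-7 seed matches (triangles) along the longest annotated 3′ UTR (grey bars, in bases from the UTR start) of the 8 genes and of Trim71; filled triangles are followed by an A. Lin28a has 2 filled triangles and Igf2bp1 has 3, while Lin28b and Hmga2 have 1 each near the start of the UTR.

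Values throughout are on the authors' log2 scale, which is scaled between libraries but not by gene length, so levels are compared between groups and not between genes. The depth of the libraries is unknown, and a log2 difference of 1 is a doubling if the base is 2, as inferred from the named software. Trim71, the altered gene, was at 7.44, 7.43, 7.47 and 7.53 in Trim71-KO libraries 1A, 2B, 3A and 3B, against 8.94, 8.94, 8.93 and 9.01 in Trim71-cond. It averaged 10.11 ± 0.10 in R595H/R595H, 9.58 ± 0.04 in R595H/+ and 9.50 ± 0.03 in WT clones (SD, n = 3 each). The labels do not say which part of the gene was deleted, and the remaining signal does not measure intact transcript. Limma called 1783 of 9580 genes between Trim71-KO and Trim71-cond (18.6%) and 328 of 9588 between R595H/R595H and WT (3.42%, 210 higher and 118 lower). With every library scaled to the same total the count for R595H/R595H was 157, 72 higher and 85 lower. Means of 9 pluripotency markers lay between 8.48 and 8.70 in every library, but single markers changed in both directions. Of the 8 tested, 3 were called higher in Trim71-KO (Nanog by 0.39, Tdgf1 by 0.30 and Sox2 by 0.23). Zfp42 was called lower (-0.20), and 0 of the 8 were called in R595H/R595H. Of 9 feeder fibroblast markers 3 were present, Sparc (7.44 to 8.18), Fbn1 (3.12 to 3.61) and Thy1 (1.79 to 2.10), with library means of 4.20 to 4.52, and Col1a1, Col1a2, Col3a1, Dcn, Lum and Postn were not in the table. The 5 primitive endoderm markers averaged 1.30 at most. The mean of 5 Y-linked genes was 5.20 to 5.33 in Trim71-KO and 5.49 to 5.78 in Trim71-cond libraries. Among the clones it was 3.56 to 4.13 in R595H/R595H, 3.81 to 5.24 in R595H/+ and 3.70 to 5.63 in WT libraries, although all are labelled male. The single gene Lars2 accounted for 0.334% to 13.2% of the summed linear values per library. The part of these differences in the results was not tested beyond the alternatives given.

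In Trim71-KO cells 4 of the 8 genes changed. Lin28a, Cdc25a and Igf2bp3 were lower, and Lin28b, the paralogue of Lin28a, was higher. That is 3 lower and 1 higher of 8, or 50%, where 18.6% of all genes were called (9.24% higher and 9.37% lower). Because the genes and lists were chosen with earlier results of these data known, such shares are a description only. The same holds for the comparisons below. The median size of the difference was 0.32 over the 8 genes and 0.11 over all genes tested. Hmga2, Arid3b, Hmga1 and Igf2bp1 were not called.

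Lin28a stood at 5.88, 5.41, 6.05 and 6.15 in Trim71-KO libraries 1A, 2B, 3A and 3B, against 6.82, 6.83, 6.84 and 6.57 in Trim71-cond. Every Trim71-KO library lay below every Trim71-cond library, and 20.8% of all genes had groups that did not overlap. The log2 difference was -0.89 ± 0.12 (SE, n = 4 against 4; limma adjusted p = 7.5e-05), or 1.85-fold lower, and it was the ninth in size of 9580 genes. Within codes the difference was -0.94 in 1A, -1.42 in 2B, -0.79 in 3A and -0.42 in 3B, so that the fall was widest in 2B and narrowest in 3B. The two-sided exact permutation p was 0.0286, the smallest that 4 against 4 libraries allow.

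Lin28b moved the other way. It stood at 6.41, 6.47, 6.61 and 6.78 in Trim71-KO libraries 1A, 2B, 3A and 3B, against 6.22, 6.12, 5.88 and 6.28 in Trim71-cond, and the groups did not overlap. The rise was 0.44 ± 0.09 (SE, n = 4 against 4; limma adjusted p = 0.0030; exact permutation p = 0.0286), or 1.36-fold. Within codes it ran between 0.19 in 1A and 0.73 in 3A, with 0.35 in 2B and 0.51 in 3B. In a single fit of all 5 groups, where the wider spread between clones enters, the same difference had a limma adjusted p of 0.11 and was not called.

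Cdc25a encodes the phosphatase that removes inhibitory phosphates from CDK2 and CDK1 and so lets cells enter S phase and mitosis. It stood at 7.43, 7.29, 7.53 and 7.44 in Trim71-KO libraries, against 7.79, 7.70, 7.83 and 7.81 in Trim71-cond, in the order of codes used above. It fell by 0.36 ± 0.07 (SE; limma adjusted p = 0.00085; exact permutation p = 0.0286, n = 4 against 4), or 1.28-fold. The difference was the most even of the called ones, between -0.41 in 2B and -0.30 in 3A.

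Igf2bp3 encodes an oncofetal RNA-binding protein that stabilizes and localizes mRNAs, and Igf2bp1 encodes a relative of the same family. Igf2bp3 stood at 6.83, 6.85, 6.67 and 6.53 in Trim71-KO libraries, against 6.98, 6.97, 7.05 and 7.21 in Trim71-cond, and fell by 0.34 ± 0.08 (SE; limma adjusted p = 0.0064; exact permutation p = 0.0286, n = 4 against 4). The fall was 0.68 in code 3B and 0.38 in 3A, while 1A and 2B differed by -0.16 and -0.13. The gene overlaps Malsu1 on the other strand for 1529 bases, and the library kit does not mark strand, so reads in the overlap cannot be told apart. Malsu1 itself differed by -0.12 ± 0.09 (SE, limma adjusted p = 0.38). Other genes on the opposite strand span parts of Arid3b (Gm17231), Hmga2 (1700006J14Rik and 9230105E05Rik) and Lin28a (Gm13061), none of them a row of the table, so the values of these genes have the same limit. Igf2bp1 lay between 9.96 and 10.08 in Trim71-KO and between 10.00 and 10.13 in Trim71-cond libraries, a difference of -0.05 ± 0.05 (SE) with a 95% interval from -0.15 to 0.05.

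The HMGA proteins bind the minor groove of AT-rich DNA, and Hmga2 is the let-7 target with the best known array of sites. Hmga2 stood at 5.70, 5.38, 5.19 and 5.32 in Trim71-KO libraries 1A, 2B, 3A and 3B, against 5.37, 5.89, 5.88 and 5.66 in Trim71-cond. It was lower in 3 codes, by 0.33 to 0.68, and 0.33 higher in 1A, and the groups overlapped. Over all codes the difference was -0.30 ± 0.11 (SE, limma adjusted p = 0.070), short of the threshold. Of 16 alternatives, 13 left the difference uncalled, with a limma adjusted p of up to 0.22 (without the Trim71-cond library of 2B). It passed without the Trim71-cond library of code 1A (-0.41, limma adjusted p = 0.0067), without the Trim71-KO library of that code (-0.40, limma adjusted p = 0.0094) and without both (-0.51, limma adjusted p = 0.0012), the last chosen after the values were seen.

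Hmga1 lay between 5.26 and 5.52 in Trim71-KO and between 5.22 and 5.48 in Trim71-cond libraries (difference -0.04 ± 0.09, SE, 95% interval -0.23 to 0.14). Its mRNA is 99.8% identical over 1602 bases to that of Hmga1b, which is not a row of the table, so the value of Hmga1 is uncertain. Arid3b encodes an AT-rich interaction domain transcription factor. It lay between 5.46 and 5.56 in Trim71-KO libraries and between 5.07 and 5.47 in Trim71-cond libraries, where 3B was far below the others, and the difference of 0.15 ± 0.09 (SE) had a limma adjusted p of 0.25 and was 0.06 without the Trim71-cond library of 3B.

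**Figure D2:**
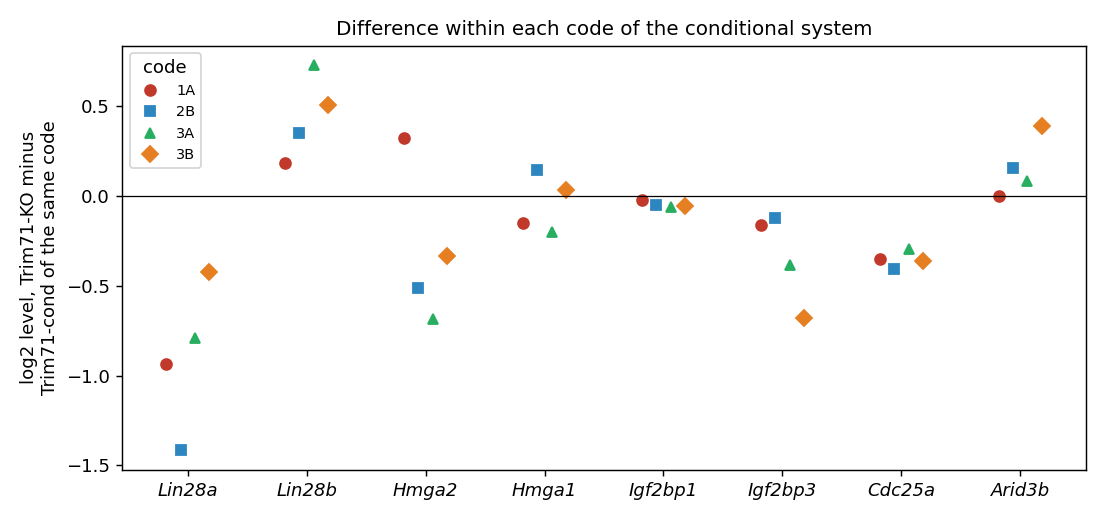
Log2 level in Trim71-KO minus that in the Trim71-cond library of the same code (vertical axis) for the 8 genes; each symbol is a code. Lin28a and Cdc25a lie below 0 in every code and Lin28b above 0 in every code, while Hmga2 is above 0 in 1A and below it in the other codes.

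**Figure D3:**
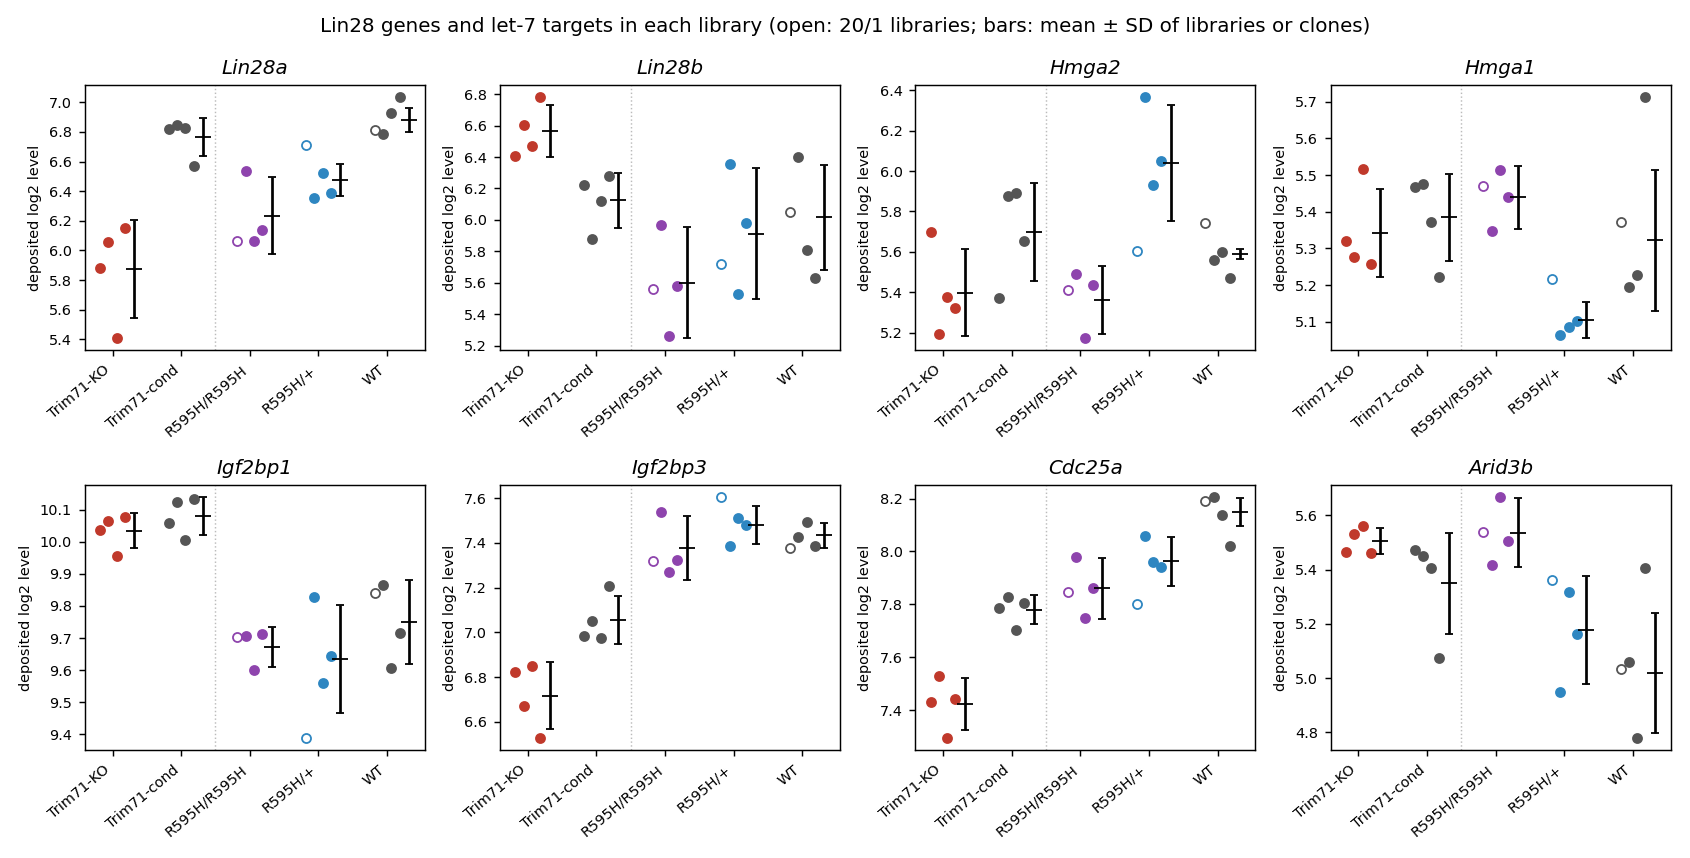
Deposited log2 level of each gene in all 20 libraries by group; open circles are the libraries of 20/1 and the black bars give the mean ± SD over libraries (conditional system) or clones. Vertical axes differ between panels and do not start at 0. Lin28a is below Trim71-cond in every Trim71-KO library and below WT in every R595H/R595H library, and Lin28b is above every Trim71-cond library in every Trim71-KO library.

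In R595H/R595H clones Lin28a was again lower and Arid3b was higher, and these were the 2 genes called of 8 (1 lower and 1 higher, 25%, against 3.42% of all genes, 2.19% higher and 1.23% lower). Lin28b was not called, and its difference from WT had the opposite sign to that in Trim71-KO. The median size of the difference over the 8 genes was 0.26, and 0.11 over all genes tested.

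Lin28a averaged 6.10 in clone C14, 6.53 in C20 and 6.07 in C24, against 6.92 in WT C16, 6.79 in C7 and 6.93 in C5. The clones did not overlap, as held for 29.7% of all genes, and C20 was the closest to WT. The difference was -0.65 ± 0.11 (SE, n = 3 against 3; limma adjusted p = 0.0091), or 1.56-fold lower. It was -0.75 between C14 and C16 in the libraries of 20/1 and -0.90 in those of 5/2. With a Y-linked covariate (the mean of those genes) the difference was -0.67 (limma adjusted p = 0.035). Without WT C16 the limma adjusted p was 0.056 (difference -0.62), and without WT C5 it was 0.051 (difference -0.62), so that the call was lost in both. The exact permutation p was 0.1, the smallest that 3 against 3 clones allow.

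Lin28b averaged 5.57 in C14, 5.97 in C20 and 5.26 in C24, against 5.84 in WT C16, 6.40 in C7 and 5.81 in C5. The genotypes overlapped, and the spread within each was wide (SD 0.35 and 0.33). The difference was -0.42 ± 0.21 (SE, limma adjusted p = 0.26), with a 95% interval from -0.86 to 0.02. It was -0.23 without WT C7 and -0.25 without R595H/R595H C24. Part of the spread lay within a clone: WT C16 gave 5.63 in its library of 5/2 and 6.05 in that of 20/1, while C14 gave 5.58 and 5.56.

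Arid3b averaged 5.52 in C14, 5.42 in C20 and 5.67 in C24, against 5.22 in WT C16, 5.06 in C7 and 4.78 in C5. These clones did not overlap, as held for 29.7% of all genes. The rise of 0.52 ± 0.12 (SE, n = 3 against 3; limma adjusted p = 0.038), or 1.43-fold, lost its call in 9 alternatives. WT C16 was at 5.41 in its library of 5/2 and at 5.03 in that of 20/1, and the difference between C14 and C16 was 0.10 on 5/2 and 0.51 on 20/1. With the libraries of 5/2 alone the difference was 0.45 with a limma adjusted p of 0.12, with all libraries and the clone as a random block it was 0.50 with a limma adjusted p of 0.069, and with the Y-linked mean as covariate it was 0.42 with a limma adjusted p of 0.12. The call was also lost without WT C16 (0.62, limma adjusted p = 0.056), WT C7 (0.54, 0.10), WT C5 (0.40, 0.14), R595H/R595H C14 (0.52, 0.12), R595H/R595H C24 (0.45, 0.086) or R595H/+ C15 (0.52, 0.061), the last entering through the shared spread.

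Cdc25a averaged 7.85 in C14, 7.98 in C20 and 7.75 in C24, against 8.11 in WT C16, 8.21 in C7 and 8.14 in C5. The clones did not overlap, which held for 29.7% of all genes, and the difference of -0.29 ± 0.08 (SE, limma adjusted p = 0.059) narrowly missed the threshold. It passed without R595H/R595H C20 (limma adjusted p = 0.035), without R595H/+ C21 (0.039) and in the fit of both systems (0.024). The other 15 of 18 alternatives left it uncalled, with a limma adjusted p of up to 0.21 (without R595H/R595H C14). Hmga2 averaged 5.42, 5.49 and 5.17 in C14, C20 and C24, against 5.61, 5.56 and 5.60 in C16, C7 and C5, a difference of -0.23 ± 0.13 (SE, limma adjusted p = 0.32) that was -0.13 without R595H/R595H C24. Hmga1 differed by 0.12 ± 0.10, Igf2bp1 by -0.08 ± 0.09 and Igf2bp3 by -0.05 ± 0.08 (SE, n = 3 against 3), all with overlapping clones. The 95% interval for Igf2bp3 ran from -0.24 to 0.13 in R595H/R595H and from -0.50 to -0.17 in Trim71-KO.

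In R595H/+ against WT, limma called 0 of the 8 genes and 0 of 9588 genes in all (0.00%), with 4 of the 8 and 736 of all genes at an unadjusted p under 0.05. This comparison shares its WT clones with the one above. Lin28a averaged 6.55 in C15, 6.35 in C21 and 6.53 in C23, all below the WT clones, a difference of -0.40 ± 0.11 (SE, limma adjusted p = 0.50). Its C15 libraries differed, with 6.39 on 5/2 and 6.71 on 20/1. Hmga2 stood above WT, at 5.83 in C15, 6.37 in C21 and 5.93 in C23, a difference of 0.45 ± 0.13 (SE, limma adjusted p = 0.50). C15 gave 6.05 for Hmga2 on 5/2 and 5.61 on 20/1, so that its library titled 20/1 lay within the WT range. Without C21 the Hmga2 difference was 0.29. Hmga1 (-0.22 ± 0.10) and Cdc25a (-0.19 ± 0.08) were below WT in every clone without being called, and the Hmga1 difference was -0.11 without WT C16. Non-overlap of this kind held for 12.5% of all genes.

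Between R595H/R595H and R595H/+, which shares the R595H/R595H clones with the comparison against WT, Hmga2 was the 1 gene of 8 called (12.5%, against 0.772% of all genes, 74 in number, with 0.574% higher and 0.198% lower). Its clones were between 5.17 and 5.49 in R595H/R595H and between 5.83 and 6.37 in R595H/+, and it fell by 0.68 ± 0.13 (SE, limma adjusted p = 0.030), or 1.60-fold. The limma adjusted p was 0.12 with the Y-linked covariate and 0.054 with all libraries and the clone as a random block. It was 0.066 without WT C16, 0.053 without WT C5, 0.076 without R595H/R595H C14, 0.054 without R595H/R595H C24 and 0.058 without R595H/+ C21, where the difference was -0.52. Hmga1 (0.34 ± 0.10, limma adjusted p = 0.11) and Arid3b (0.36 ± 0.12, limma adjusted p = 0.15) stood higher in every R595H/R595H clone than in any R595H/+ clone without passing, and 25.4% of all genes were free of overlap.

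**Figure D4:**
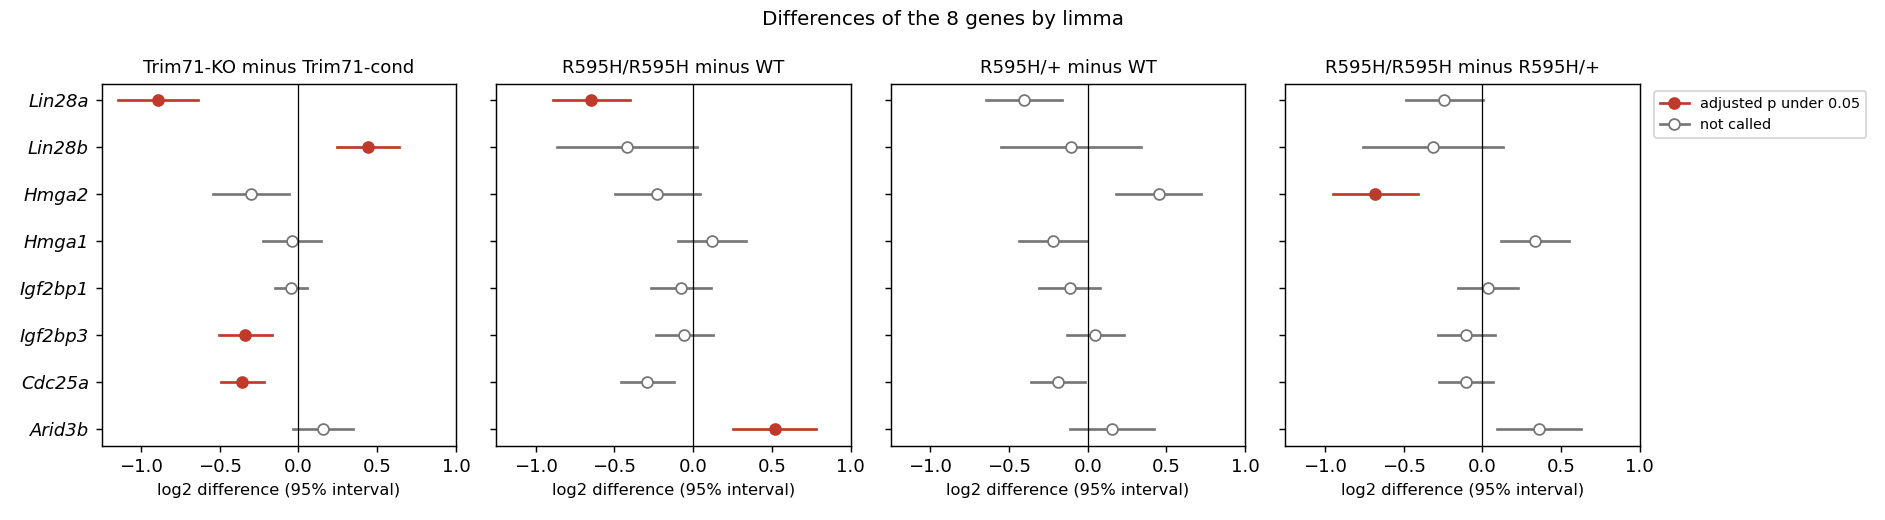
Log2 difference of each gene with its 95% interval from limma in 4 comparisons; filled red symbols passed an adjusted p under 0.05. Lin28a is left of 0 in every panel and called in the first and second, Lin28b is called right of 0 in the first, and Hmga2 is called left of 0 in the fourth.

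The Trim71-KO effect and the R595H/R595H effect were then set against each other in one fit, in which 136 of 9588 genes (1.42%), and 67 with the code as a replicate block, differed between the systems. None of the 8 genes was called. An unadjusted limma p under 0.05 was reached by 3 of them, and by 1666 of all 9588 genes. Lin28b had the widest gap, with an effect of 0.44 in Trim71-KO and of -0.42 in R595H/R595H, a difference of 0.86 ± 0.28 (SE, limma adjusted p = 0.12) that was the 11th in size of all genes. For Lin28a the effects of -0.89 and -0.65 differed by -0.25 ± 0.18 (SE, limma adjusted p = 0.52, 95% interval -0.62 to 0.13), and by -0.09 without the Trim71-KO library 2B or -0.10 without R595H/R595H C20. Igf2bp3 differed by -0.28 ± 0.12 (limma adjusted p = 0.21) and Arid3b by -0.36 ± 0.16 (limma adjusted p = 0.22). Starting cells and handling differ between the systems as well, and their part cannot be told apart from that of the genotype.

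Over the 5 groups Lin28a was lowest in Trim71-KO (5.87 ± 0.33, SD, n = 4), followed by R595H/R595H (6.23 ± 0.26, n = 3), R595H/+ (6.48 ± 0.11, n = 3), Trim71-cond (6.77 ± 0.13, n = 4) and WT (6.88 ± 0.08, n = 3). Neighbours in that order overlapped in range except R595H/+ and Trim71-cond. Lin28b ran in another order: R595H/R595H (5.60 ± 0.35), R595H/+ (5.91 ± 0.42), WT (6.02 ± 0.33), Trim71-cond (6.12 ± 0.18) and Trim71-KO (6.57 ± 0.17), where Trim71-KO alone stood clear of its neighbour. Igf2bp1 was higher in the conditional system than in the clones without overlap between the systems. The conditional groups averaged 10.03 (Trim71-KO) and 10.08 (Trim71-cond), and the clonal groups 9.64 (R595H/+), 9.67 (R595H/R595H) and 9.75 (WT). Igf2bp3 and Cdc25a were lowest in Trim71-KO, at 6.72 ± 0.15 and 7.42 ± 0.10 (SD, n = 4), and Trim71-cond was next for both. Orders that span both systems mix genotype with starting cells and handling, and their parts cannot be told apart.

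Genes with the pattern most like that of Lin28a were sought by the root mean square difference over the 8 conditional libraries and 9 clones, centred within each system, among 9529 genes. Dpysl3, a regulator of the neuronal cytoskeleton, was closest at 0.17, where Lin28a itself varied by 0.40, followed by Prune2 (0.20), BC067074 (0.22), the myosin gene Myh13 (0.22) and Prex2 (0.22), an exchange factor for the small GTPase RAC. Dpysl3 fell by 0.76 in Trim71-KO (limma adjusted p = 5.9e-06) and differed by -0.41 in R595H/R595H (limma adjusted p = 0.091). Prune2 fell by 0.64 in Trim71-KO and fell by 0.58 in R595H/R595H (limma adjusted p = 0.00060 and 0.0094). For Lin28b, which varied by 0.31, the closest were Atxn1, Fam208b and Snx11, at 0.17 or 0.18. The distances are a description over 17 values. The genes were picked for likeness over these same values, so the differences and p-values given for them follow from the choice. They are not separate support.

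Other known let-7 targets changed in both directions in Trim71-KO. Of 31 tested, 4 rose and 6 fell, with a median of -0.064 against -0.003 over all genes, and 18.6% of all genes were called. Slc20a1, a phosphate transporter gene, rose by 0.40 ± 0.05 (SE, limma adjusted p = 3.3e-05). The 6 that fell include Trim71 itself, the altered gene. Prtg (protogenin, a receptor of the early embryo) fell by 0.53 ± 0.10 (limma adjusted p = 0.00094). Nr6a1, which encodes the germ cell nuclear factor and holds 8 seed matches, fell by 0.47 ± 0.08 (SE, limma adjusted p = 0.00034). Of the 24 listed targets with the seed match CTACCTC, 4 rose and 5 fell, Trim71 among the 5. Of the 7 without it 0 rose and 1 fell. Some of the 7 hold the offset form TACCTCA, among them Mycn with 2 copies, so the split does not part genes with and without any site. In R595H/R595H, Trim71 was the 1 of 31 that rose, and 0 fell, where 3.42% of all genes were called. An unadjusted limma p under 0.05 was reached by 9 of the 31, and by 2021 of all 9588 genes.

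Of 23 genes for LIN28 and let-7 processing, 5 rose and 2 fell in Trim71-KO, where 9.24% of all genes were called higher and 9.37% lower. Hnrnpa1, whose product binds let-7 precursors, rose by 0.21 ± 0.05 and Tnrc6b, a silencing partner of Argonaute, rose by 0.30 ± 0.07 (SE, limma adjusted p = 0.0041 and 0.0043). Tarbp2, a partner of Dicer, fell by 0.34 ± 0.09 (limma adjusted p = 0.0088), and the helicase gene Ddx17 fell by 0.20 ± 0.05 (limma adjusted p = 0.0097). The other three, Ago3, Tnrc6a and Syncrip, rose by 0.26, 0.20 and 0.14 and are named after their values were seen. In R595H/R595H, where 3.42% of all genes were called, 1 of 23 was called: Zcchc11 (also Tut4), the uridylase that LIN28A recruits to let-7 precursors, fell by 0.33 ± 0.07 (SE, limma adjusted p = 0.025). Its effect differed between Trim71-KO and R595H/R595H by 0.35 ± 0.09 (SE, limma adjusted p = 0.045). It was the 1 of 23 called in that test, against 1.42% of all genes. Listed genes called there as well include Sall4 (-0.39 ± 0.10, limma adjusted p = 0.046) and Ccne1 (-0.52 ± 0.13, limma adjusted p = 0.047), taken up below. The 2 let-7 host transcripts tested, Wdr82 and Huwe1, were not called in any comparison.

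Of 10 transcription factors reported to act at Lin28a or Lin28b, 3 rose and 2 fell in Trim71-KO, against 18.6% of all genes called. Klf4 rose by 0.74 ± 0.07, Nanog by 0.39 ± 0.05 and Sox2 by 0.23 ± 0.06, while Sall4 fell by 0.46 ± 0.06 and Tcf7l1, a repressor of the Wnt pathway, fell by 0.26 ± 0.08 (SE, limma adjusted p at most 0.025 for Tcf7l1). In R595H/R595H Klf4 rose by 0.47 ± 0.07 (SE, limma adjusted p = 0.0036) and was the 1 of 10 called, against 3.42% of all genes. Among 13 relatives and cell cycle partners of the genes, 0 rose and 3 fell in Trim71-KO, a share near the 18.6% of all genes called. Ccne1, the cyclin that works with CDK2, fell by 0.80 ± 0.08, Cdk1 fell by 0.18 ± 0.06, and Arid3a, the relative of Arid3b and itself a listed let-7 target, fell by 0.26 ± 0.09 (SE, limma adjusted p = 8.2e-07, 0.030 and 0.040). In R595H/R595H 0 of these 13 were called by limma, where 3.42% of all genes were. An unadjusted limma p under 0.05 was reached by 5 of the 13, and by 2021 of all 9588 genes.

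**Figure D5:**
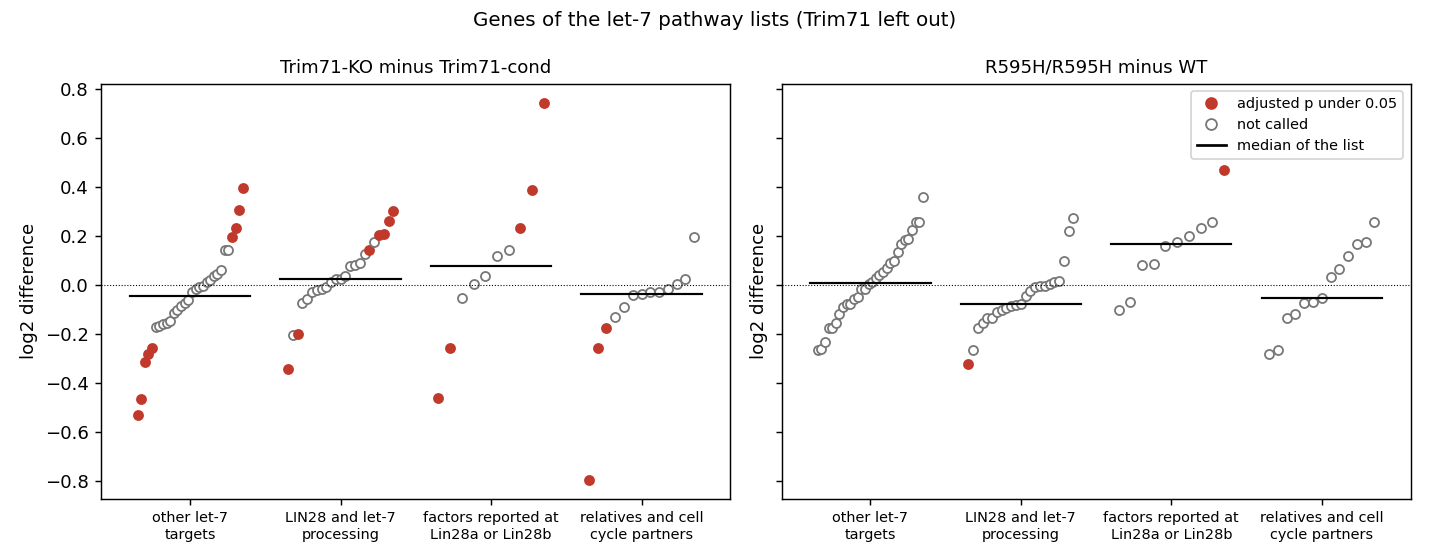
Log2 difference of each tested gene of 4 pathway lists in Trim71-KO (left) and R595H/R595H (right), sorted within each list, with Trim71 left out; filled red symbols passed an adjusted p under 0.05 and the bar is the median of the list. Called genes lie on both sides of 0 for let-7 targets in Trim71-KO, and Zcchc11 and Klf4 are the called ones in R595H/R595H.

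Among markers of other states, Krt18 fell by 0.63 ± 0.16 in Trim71-KO (SE, limma adjusted p = 0.011), although the groups overlapped. Krt8 differed by -0.29 ± 0.11 (limma adjusted p = 0.080) and Tfap2c by 0.05 ± 0.09 (limma adjusted p = 0.73), and neither was called. The means of these 3 trophectoderm markers were 4.82 to 5.15 in Trim71-KO and 5.06 to 5.41 in Trim71-cond. Cdx2 and Elf5 were not in the table. In R595H/R595H, Dnmt3b rose by 0.47 ± 0.11 (limma adjusted p = 0.034). Otx2 (0.68 to 1.09 over all libraries) and Pou3f1 (-0.11 to 0.02) were too low to be tested, and Fgf5 was not in the table. The means of the 3 epiblast-like markers present were 2.66 to 2.69 in R595H/R595H and 2.56 to 2.60 in WT. Of the 3 trophectoderm markers Krt8 rose in R595H/R595H by 0.42 ± 0.11 (limma adjusted p = 0.049). Krt18 differed by 0.32 ± 0.10 (limma adjusted p = 0.094) and Tfap2c by -0.45 ± 0.13 (limma adjusted p = 0.069). The trophectoderm means were 5.07 to 5.10 in R595H/R595H and 4.90 to 5.04 in WT. In bulk RNA fewer cells of a kind and less RNA per cell cannot be told apart, and the part of these markers in the results was not tested.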

How the data were processed

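The authors deposited one table of values on a log scale, one column per library, in units taken as log2. The submitters' processing notes name CASAVA 1.8, STAR and DESeq2. How reads were counted and transformed, and on which build and annotation, is not given in the sources used here. Values ran from -0.65 to 18.0, as regularized log values do, and such values shrink low genes, whose folds may be understated. Depth is unknown, and 0 value columns were left unused.

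Limma 3.58.1 in R 4.3.3 (lmFit, eBayes with trend and robust) was run on genes with a mean of at least 3.32 (log2 of 10), with calls at an adjusted p (Benjamini-Hochberg) under 0.05. The conditional fit held 8 libraries and the clonal fit 9 clone means, and a further fit held both. The fits were tested on simulated data. Exact permutation tests were two-sided. The labels give a day for each code, shared by Trim71-KO and Trim71-cond, but 3A and 3B have the same day. Deviations of same-code libraries correlated at -0.89 (1A), -0.09 (2B), -0.12 (3A) and 0.13 (3B). Of the Trim71-KO libraries, 3B alone matched the Trim71-cond library of its own code best. Differences within codes are therefore a description, and the main fit did not pair the libraries.

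The genes and lists were chosen with earlier results of these data known. Named genes were the 8 members, Trim71, up to 4 genes of each list with the smallest p per comparison, and the 5 genes closest to Lin28a and 3 closest to Lin28b, leaving out predicted genes. Mature and precursor microRNAs came from RefSeq (GRCm38.p6), UTRs and positions from GENCODE vM21 (GRCm38). Transcripts were compared with blastn 2.17.0. Protein sequences were not used here. Alternatives covered filters, normalization, spread estimation, dates, the code as a block, a Y-linked covariate and leaving out each library or clone.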

Additional observations from a re-analysis of the deposited data

Results flagged for a closer look

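In Trim71-cond, the library of code 3B stood apart for 2 of the genes. Its Lin28a level was 6.57, where the other 3 libraries lay between 6.82 and 6.84, and its Arid3b level was 5.07, where the others lay between 5.41 and 5.47. The gap to the nearest library passed the 95% limit of Dixon's test in both, which chance passes in about 1 in 20 groups. Without that library Lin28a fell by 0.95 in Trim71-KO (limma adjusted p = 0.00031), and the Arid3b difference was 0.06, against 0.15 with it.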

How the results depend on the processing

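Of 754 refits of the 40 results (8 genes in 5 comparisons), 719 kept direction and side of the threshold, 19 lost a call, 6 gained one and 10, all of results not called, changed sign. Lin28b in R595H/+ against WT (-0.105) was 0.008 with the 5/2 libraries only, 0.086 without R595H/+ C23, and -0.328 to 0.087 leaving out single clones (0.087 without WT C7). Igf2bp1 in R595H/R595H against R595H/+ (0.037) was -0.004 with the 5/2 libraries only, -0.013 with the Y-linked covariate, -0.001 without R595H/+ C23, and -0.022 (without R595H/+ C15) to 0.134 leaving out single clones. Between the systems Igf2bp1 (0.031) was -0.011 under quantile normalization, -0.004 without R595H/R595H C24, and -0.026 (without WT C7) to 0.103 leaving out single libraries or clones. The code as a replicate block changed no call of the 8 genes in Trim71-KO against Trim71-cond, where it gave 1392 called genes in all, and lowered the genes differing between the systems to 67. The calls of Lin28a, Cdc25a and Igf2bp3 in Trim71-KO held in every alternative run. Counts over all genes moved by over 1.5 times as follows. Against WT, R595H/R595H had 193 with a minimum mean of log2 of 40, 157 with equal totals, 603 in one fit of both systems, 191 with the 5/2 libraries and 135 with the Y-linked covariate, and 67 to 541 leaving out single clones. Under that minimum, Arid3b and Hmga1 were not tested in the comparisons between clones. Against R595H/+ it had 116 without a filter, 39 with the higher minimum, 19 with equal totals (11 higher and 8 lower, against 55 and 19), 278 in one fit, 213 with the clone as a random block and 5 with the covariate, and 7 to 80 leaving out clones. Between the systems there were 83 with the 5/2 libraries, and 40 to 213 leaving out single libraries or clones. Why these counts moved was not tested. In R595H/+ against WT every alternative gave 0. Unknown depth limits all values.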
